A study of Macaca fascicularis with 2 samples.

Results

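Notochordal cells (NCs) of the cynomolgus monkey nucleus pulposus (NP) were divided by how much of their RNA came from the cytoplasmic actin genes *ACTB* and *ACTG1*, and the actin-high cells were compared with the actin-low cells across all other genes. An NC was any tagged cell with 5 or more reads of both *KRT19* and *TBXT*, which encode an epithelial keratin and the notochord transcription factor brachyury. Of 5723 cells in the library, 5674 carried 1 of 4 tags, and 310 of these were NCs. The 155 cells above the median actin level were called actin-high and the other 155 actin-low, so that the actin values themselves are a description of the split and not a result. Of the cells at the edge of the marker rule, 2 NCs had exactly 5 reads of 1 marker, and 3 tagged cells were left out with 4 reads of 1 marker and at least 4 of the other. The split in turn fell between an actin-low cell with 11116 reads per 1000000 reads of the cell (rpm) and an actin-high cell with 11823 rpm.

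The cells came from 1 single-cell RNA sequencing library of *Macaca fascicularis*, in which the NP and articular cartilage (AC) of 1 wild-type male and the AC of another, both 3 years old, had been pooled. The tissues were digested with Liberase, the cells were given oligonucleotide tags through biotinylated surface proteins, and live tagged cells were sorted before sequencing by TAS-seq, which counts reads and not molecules. No label ties a tag to a tissue or animal. Only 1 animal gave NP, so the NCs of the NP come from 1 animal and hold no spread between animals. The notochordal group is defined by 2 transcripts, with no sort or lineage mark, and it rests on cells released by digestion.

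The notochord is the embryonic rod around which the vertebral column forms, and its descendants persist in the young NP as large vacuolated cells that make hedgehog ligand. Actin monomers assemble into filaments that carry tension, and free monomers hold the coactivator MRTF out of the nucleus. When monomers are used up, MRTF joins the transcription factor SRF at the genes for actin itself and for many actin-binding proteins.

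The actin level of the 310 NCs ranged from 200 to 82152 rpm with a median of 11470 rpm. Of these cells, 112 were below 5000 rpm, 66 were between 5000 and 15000 rpm and 132 were above 15000 rpm, while only 6 lay within 10% of the median. The 5364 other tagged cells had a median of 4722 rpm, and 13.2% of them exceeded the median of the NCs. *ACTB* and *ACTG1* ranked NCs alike, with a Spearman correlation of 0.84 over 310 cells, against 0.59 over the other cells. The same reads can align to both of these near-identical genes, and the genes share each cell's depth, so the correlation is a description only.

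**Figure D1:**
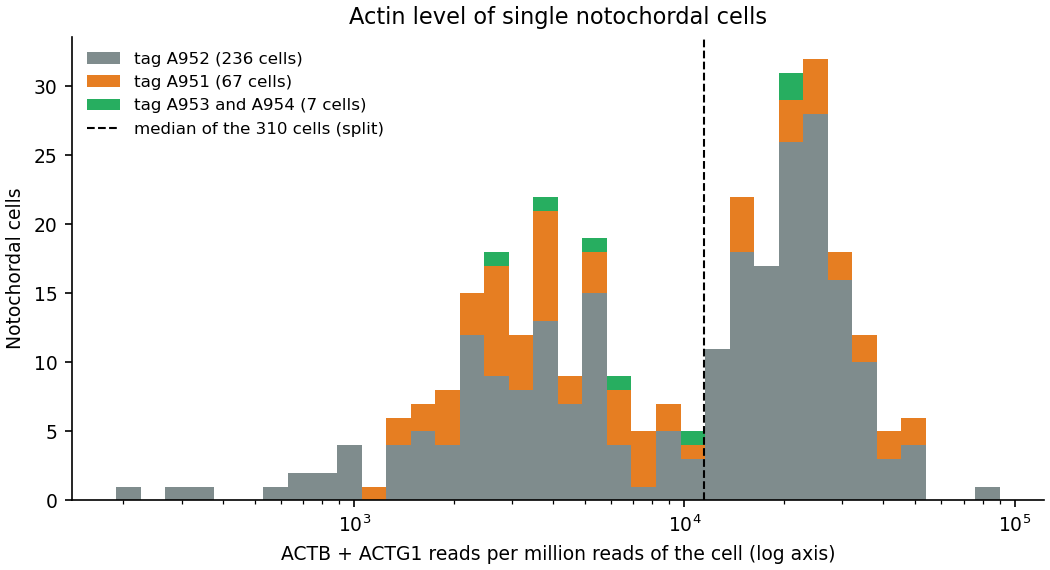
Histogram of the summed ACTB and ACTG1 level (rpm, log axis) of the 310 NCs, stacked by tag. The cells form 2 humps, with 112 below 5000 rpm and 132 above 15000 rpm, and the dashed median at 11470 rpm lies between them.

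The tags differed in how many of their NCs were actin-high. Tag A952 held 236 NCs, of which 134 were actin-high (56.8%, 95% exact binomial interval 50.2 to 63.2). Tag A951 held 67, of which 19 were actin-high (28.4%, 18.01 to 40.7), and tags A953 and A954 held 5 and 2. The median actin level was 14751 rpm in tag A952 and 4744 rpm in tag A951. Both tags held cells below 5000 and above 15000 rpm, as the histogram by tag shows. The values of both tags are therefore given for named genes past 2-fold where they differ in side, and the part of the tag in the comparison was not tested beyond matching within tags.

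Actin-high cells had more reads than actin-low cells, with medians of 210402 and 152523 per cell, so cells were paired 1 to 1 on total reads within 0.25 on the log2 scale. This gave 131 pairs and left 48 cells without a partner. Both cells carried tag A952 in 73 pairs and tag A951 in 5, and the other pairs joined cells of different tags. Tag A951 gave 17 of the paired actin-high cells and 41 of the paired actin-low cells, so pair counts can also carry a difference between tags. In the pairs, median depth was 193916 reads on the actin-high side and 173743 on the actin-low side, with medians of 4077 and 3854 genes detected. Mitochondrial genes took a median of 1.40% and 1.19% of the reads, and ribosomal protein genes 8.06% and 7.66%. *ACTB* and *ACTG1* together took a mean of 2.46% of the reads of an actin-high cell and 0.392% of an actin-low cell. With 1 library there are no replicates, so no test was made. Intervals are exact, cover counting error only, and take no account of PCR copies or of differences between animals. The Poisson intervals of pooled levels also leave out the spread between cells, so they are too narrow for the level of a group.

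Genes were compared when at least 20% of the paired cells had a read, which left 7243 of 21371 genes without the actin pair. Of these, 471 (6.5%) had a pooled level at least 2-fold higher in actin-high cells and 992 (13.7%) a level at least 2-fold higher in actin-low cells. The median log2 ratio of all compared genes was -0.17, and the middle of the distribution ran from -0.65 to 0.26. Because a few cells can hold most reads of a gene, the number of pairs in which the actin-high or the actin-low cell had the higher level is given beside each ratio. Genes that were 2-fold apart and also at least 2 to 1 in their untied pairs numbered 132 (1.82%) on the actin-high side and 213 (2.94%) on the actin-low side. Leaving out the cell with most reads of a gene from each group kept 421 of the 471 and 905 of the 992 genes. A gene with a read in under 20% of the cells of 1 group passed the detection limit only through the other group, so its ratio is a description only.

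Both groups carried the notochordal genes, and those genes did not move together. *KRT19* was at 1161 rpm in actin-high and 1121 rpm in actin-low cells, a log2 ratio of 0.05. *TBXT* was at 774 and 1109 rpm (log2 ratio -0.52), with the higher level in the actin-low cell in 82 of 131 pairs. Since the 2 genes chose the cells, their reads in every NC follow from the rule. The lipid carrier gene *APOE* was at 11563 and 10258 rpm, and *NRN1* (neuritin) and *SRGN* (serglycin) had log2 ratios of 0.37 and 0.27. Of 10 notochordal markers compared, *SHH* was 2-fold higher in actin-high cells (10%, against 6.5% of all genes) and the uncharacterized gene *C3orf49* in actin-low cells (10%, against 13.7%), with a median log2 ratio of -0.14 for the list. The 10 include *KRT19* and *TBXT*, which chose the cells. *SHH*, with a read in 19.1% of actin-low cells, passed the 20% limit only through the actin-high group, so nothing is read from the list as a whole.

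Genes for proteins that bind, bundle or pull on actin filaments leaned to the actin-high side as a group. Over 74 compared genes of filament assembly, crosslinking and contraction, 13 (17.6%, against 6.5% of all genes) were at least 2-fold higher in actin-high cells and 1 (1.35%, against 13.7%) in actin-low cells, and the median log2 ratio was 0.35 against -0.17 for all genes. The summed level of these genes was higher in the actin-high cell in 106 of 131 pairs (80.9%, 73.1 to 87.3). The median cell had 36078 rpm of them when actin-high and 24185 rpm when actin-low. The list leaves out both actins, and *TAGLN* gave it the most reads.

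*TPM4* and *CNN2* had the largest ratios among them, while their relatives *TPM2* and *CNN3* had log2 ratios of -0.28 and 0.15. *TPM4*, a tropomyosin that lies along the filament, was at 554 rpm (95% exact Poisson interval 546 to 563) in actin-high and 65.0 rpm (62.0 to 68.2) in actin-low cells. The median cell had 325 rpm on the actin-high side and 5.81 rpm on the other, and the actin-high cell was higher in 113 of 128 untied pairs. *CNN2*, which encodes calponin 2, was at 269 and 37.1 rpm and was higher in the actin-high cell in 94 of 110 untied pairs. *TAGLN* (transgelin), an abundant actin-binding protein of contractile cells, was at 6765 and 2448 rpm, with the actin-high cell higher in 96 of 131 pairs. The ranges overlapped widely for all 3 genes, since the highest actin-low cell had 1129 rpm of *TPM4*, 788 rpm of *CNN2* and 12323 rpm of *TAGLN*.

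Crosslinking and membrane anchoring genes were next, with 7 of 24 (29.2%, against 6.5% of all genes) at least 2-fold higher in actin-high cells, none (against 13.7%) in actin-low cells and a median log2 ratio of 0.55. *FSCN1*, which encodes the bundling protein fascin, was at 433 and 203 rpm and was higher in the actin-high cell in 92 pairs and lower in 29. *ACTN1* (alpha-actinin 1) was at 429 and 202 rpm, and *PALLD* (palladin) at 979 and 441 rpm. *CSRP1*, *PDLIM5*, *PDLIM7* and *LIMA1*, which encode LIM domain proteins of the actin cytoskeleton, had log2 ratios between 1.27 and 2.58. The log2 ratio of *PDLIM7* was -0.09 in tag A951 and 1.39 in tag A952, and its pairs were 57 to 45.

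Of 16 contractile genes, 4 (25%, against 6.5% of all genes) were 2-fold higher in actin-high cells and 1 (6.25%, against 13.7%) in actin-low cells. That exception was *MYLK*, the myosin light chain kinase, at 3.25 and 10.1 rpm, with reads in 21.4% and 28.2% of the cells, 1 cell holding 51.7% of the actin-high reads, and a log2 ratio of 0.17 in tag A951 and -2.10 in tag A952. Nonmuscle myosin *MYH9* (log2 ratio 0.84) and the essential light chain *MYL6* (0.96) stayed under 2-fold. Of 44 listed filament assembly and turnover genes 37 were in the matrix, and *CFL1*, *TMSB4X* and *TMSB10* were among those absent. Their summed level was 6038 rpm in actin-high and 6585 rpm in actin-low cells of tag A951, and 6956 and 6341 rpm in tag A952. Of the 34 compared, 2 (5.88%) were at 2-fold on the actin-high side, near the 6.5% of all genes, with a median log2 ratio of 0.23. These were *CORO1C* (coronin 1C), at 89.2 and 30.8 rpm (log2 ratio 1.54, and 2.25 without the top cell of each group), and the Arp2/3 subunit gene *ARPC5L*, at 167 and 70.0 rpm, which had a log2 ratio of -0.18 in tag A951 and 1.66 in tag A952.

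The SRF and MRTF list had the highest median of the lists with over 10 genes compared. Of its 12 genes, 6 (50%, against 6.5% of all genes) were at least 2-fold higher in actin-high cells and none (against 13.7%) in actin-low cells, with a median log2 ratio of 1.17, and the summed level was higher in the actin-high cell in 107 of 131 pairs. It shares *TAGLN*, *CNN2*, *ACTA2* and *VCL* with other cytoskeletal lists. *TAGLN* gave it the most reads, so its summed level is not separate from that of the actin regulators above. *SRF* itself was at 447 rpm (439 to 455) and 93.0 rpm (89.4 to 96.8), and 71.0% of actin-high against 43.5% of actin-low cells had a read. Its ratio was alike in the 2 tags, with log2 values of 2.27 in A951 and 2.18 in A952. *MRTFA*, the coactivator gene, was at 39.0 and 11.0 rpm, with pairs of 48 to 27. *CCN1*, a matricellular protein gene and target of both this pathway and YAP, was at 1514 and 597 rpm and favoured the actin-high cell in 85 of 130 untied pairs. *ACTA2*, the smooth muscle actin gene, was at 124 and 4.29 rpm, but only 42.0% and 21.4% of the cells had a read, and its log2 ratio was 4.98 in tag A952 and -0.04 in tag A951.

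Focal adhesions, which tie the filaments to the matrix through integrins, were represented by 15 genes, of which 3 (20%, against 6.5% of all genes) were 2-fold higher in actin-high cells and none (against 13.7%) in actin-low cells, with a median log2 ratio of 0.19. *ZYX* (zyxin) was at 502 and 127 rpm, and the actin-high cell was higher in 100 of 121 untied pairs. *ITGA5*, the fibronectin receptor subunit, was at 1259 and 327 rpm, with 98 of 131 pairs. The median cell had 767 rpm of *ITGA5* when actin-high and 74.6 rpm when actin-low. *TES* (testin) was the other one, and *VCL* (vinculin) fell just short with a log2 ratio of 1.00 and pairs of 91 to 40. The YAP and TEAD list had 3 of 11 genes (27.3%, against 6.5% of all genes) on the actin-high side, none (against 13.7%) on the other and a median of 0.39. None of the 3 reached 2 to 1 in pairs, and 132 of the 471 genes on that side did.

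**Figure D2:**
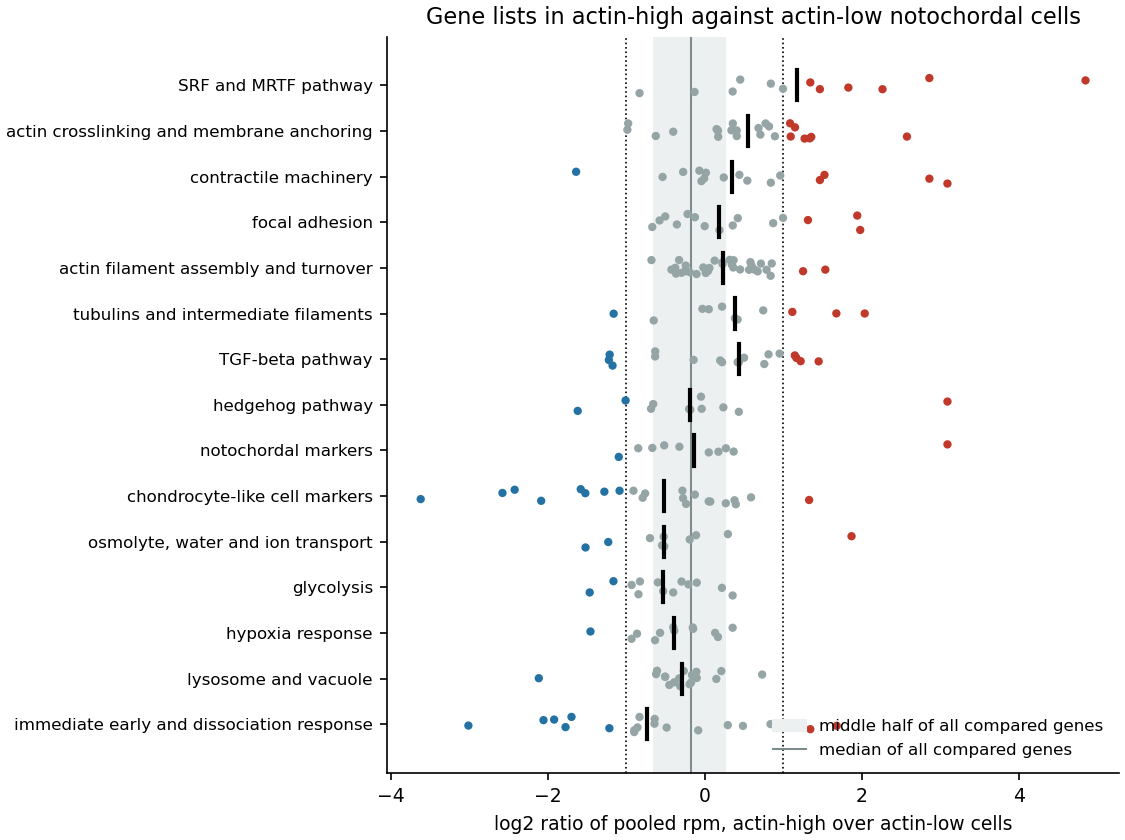
Log2 ratio of pooled rpm, actin-high over actin-low, for each compared gene of 15 lists (points, red or blue past 2-fold at the dotted lines) with the list median (black bar), over the median and middle range of all 7243 genes (grey). The SRF and MRTF list has its median at 1.17 and the immediate early and dissociation list at -0.74.

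*F3*, *AREG* and *SHH* were among the genes with the largest ratios. *F3*, which encodes tissue factor, the cell surface trigger of clotting, was at 752 rpm (742 to 762) in actin-high and 44.2 rpm (41.7 to 46.8) in actin-low cells. It was higher in the actin-high cell in 83 of 95 untied pairs, and a read was found in 67.2% of actin-high cells (58.4 to 75.1), 22.1% of actin-low cells (15.4 to 30.2) and 18.8% of other tagged cells. *AREG*, the EGF receptor ligand amphiregulin, was at 469 and 50.7 rpm, with pairs of 55 to 14 and a read in 45.8% and 15.3% of the cells against 5.37% of other tagged cells. The median cell of both groups had no *AREG* read, so the difference lies in the upper part of each group. One actin-low cell held 35.5% of the actin-low reads of *AREG*, and without the top cell of each group the log2 ratio was 3.59 in place of 3.21.

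*SHH*, the hedgehog ligand by which the notochord patterns neighbouring tissue, followed the actin split. It was at 158 rpm (153 to 163) in actin-high and 18.5 rpm (16.9 to 20.3) in actin-low cells. A read was found in 62 of 131 actin-high cells (47.3%, 38.5 to 56.2) and in 25 of 131 actin-low cells (19.1%, 12.7 to 26.9). Other tagged cells, with a median of 198674 reads, had a *SHH* read in 8.18% and 5 reads or more in 0.205%. Of these cells, 98 had a read of both *KRT19* and *TBXT*, so they are not a set free of notochordal RNA. With 5 reads as the limit the shares were 32.8% (24.9 to 41.6) and 9.92% (5.39 to 16.4). Among 72 untied pairs the actin-high cell was higher in 56, and in the remaining 59 pairs the levels were tied. The log2 ratio was 3.55 in tag A952 and 1.05 in tag A951.

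Of 11 hedgehog genes compared, *SHH* alone was 2-fold higher in actin-high cells (9.09%, against 6.5% of all genes) and 2 were 2-fold higher in actin-low cells (18.2%, against 13.7%). *SHH*, with a read in 19.1% of actin-low cells, passed the 20% limit only through the actin-high group. Nothing is therefore read from the actin-high share. The median log2 ratio was -0.19 against -0.17 for all genes, with 8 of the 11 below 0, and the summed level was higher in the actin-low cell in 82 of 131 pairs (62.6%, 53.7 to 70.9). *DISP1* gave this list the most reads. *DISP1*, which releases the ligand from the cell, was at 502 and 571 rpm. *SCUBE1*, a secreted protein of the family that carries hedgehog ligand, was at 201 and 405 rpm and was higher in the actin-low cell in 82 of 123 untied pairs. The targets *GLI1* and *PTCH1* had log2 ratios of -0.05 and 0.43. *SUFU*, an inhibitor of the pathway, was at 5.70 and 17.5 rpm with 1 cell holding 53.8% of the actin-high reads and log2 ratios of 3.61 in tag A951 and -3.17 in tag A952.

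TGF-beta pathway genes were found on both sides. Of 19 compared, 4 (21.1%, against 6.5% of all genes) were at least 2-fold higher in actin-high cells and 3 (15.8%, against 13.7%) in actin-low cells, with a median of 0.43, and the summed level was higher in the actin-high cell in 73 of 131 pairs. *SKIL*, a feedback inhibitor, was the clearest in pairs at 78 to 36, with 272 and 99.6 rpm. *TGFB1* was at 155 and 115 rpm with pairs of 68 to 53. *TGFBR3* (betaglycan), *SMAD2* and *SMAD4* were the 3 on the actin-low side, with log2 ratios from -1.22 to -1.18.

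The genes with the most one-sided pairs on the actin-high side were mostly outside the cytoskeleton. *THOC6*, a subunit of the THO complex of mRNA export, was higher in the actin-high cell in 115 of 131 pairs, at 1382 and 370 rpm. *VMP1*, a membrane protein of autophagosome formation, was at 1061 and 132 rpm with 112 of 126 untied pairs. The median cell had 677 rpm of *VMP1* when actin-high and 8.12 rpm when actin-low. These 2 genes were chosen after their values were seen, as were the others named below for their pairs.

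*MT2* and *MT1E* encode metallothioneins, which bind zinc and copper. *MT2* was at 19620 rpm (19568 to 19673) in actin-high and 5848 rpm (5818 to 5877) in actin-low cells, and was higher in the actin-high cell in 114 of 131 pairs. The median cell had 10817 rpm on the actin-high and 528 rpm on the actin-low side, so that the typical cells differed more than the pooled levels. A single actin-low cell held 18.4% of the actin-low reads of *MT2*, and the highest cell of that group had 91381 rpm. *MT1E* was at 18323 and 4721 rpm with 110 of 131 pairs. Reads can be shared between these closely related genes, so how the signal divides between them is uncertain.

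*MAP2K3*, the kinase that activates p38, was at 772 and 154 rpm with pairs of 109 to 21. *NFATC2*, a calcium-responsive transcription factor gene, was at 1795 and 591 rpm with 108 to 23, and *GADD45A*, a growth arrest gene, at 479 and 143 rpm with 103 to 21. *MAFF*, *MLF1*, *PTP4A1* and the linker histone gene *H1-2* each favoured the actin-high cell in 99 or more pairs. *SOX9*, the master transcription factor of cartilage that is also made in the notochord, was at 1421 and 566 rpm, with 88 of 130 untied pairs but log2 ratios of 1.30 in tag A952 and 0.19 in tag A951. *AQP3*, a water and glycerol channel gene, was at 698 and 191 rpm with pairs of 89 to 26.

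Other genes were named for the size of their ratio. *GBP3*, an interferon-inducible GTPase gene, was at 758 and 82.8 rpm with pairs of 86 to 23, and the phosphodiesterase gene *GPCPD1* at 209 and 25.8 rpm with 82 to 24. *PRAG1*, a scaffold pseudokinase gene, was found in 43.5% and 10.7% of cells with pairs of 55 to 9, and passed the detection limit only through the actin-high group. *MICAL2*, which oxidizes actin and thereby acts on the SRF pathway, was at 145 and 17.5 rpm with pairs of 52 to 25. *PLK3*, *RIN1*, *LRRC8B*, *ANOS1* and *SLC6A7* were found in under 40% of the cells of either group, with log2 ratios from 2.91 to 3.48. Without the top cell of each group the log2 ratios of *PRAG1*, *SLC6A7* and *ANOS1* were larger, at 3.92, 4.36 and 4.54. *CXCL8*, which encodes interleukin 8, had a log2 ratio of 3.59 but pairs of 39 to 33, and 1 cell held 48.3% of its actin-high reads.

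**Figure D3:**
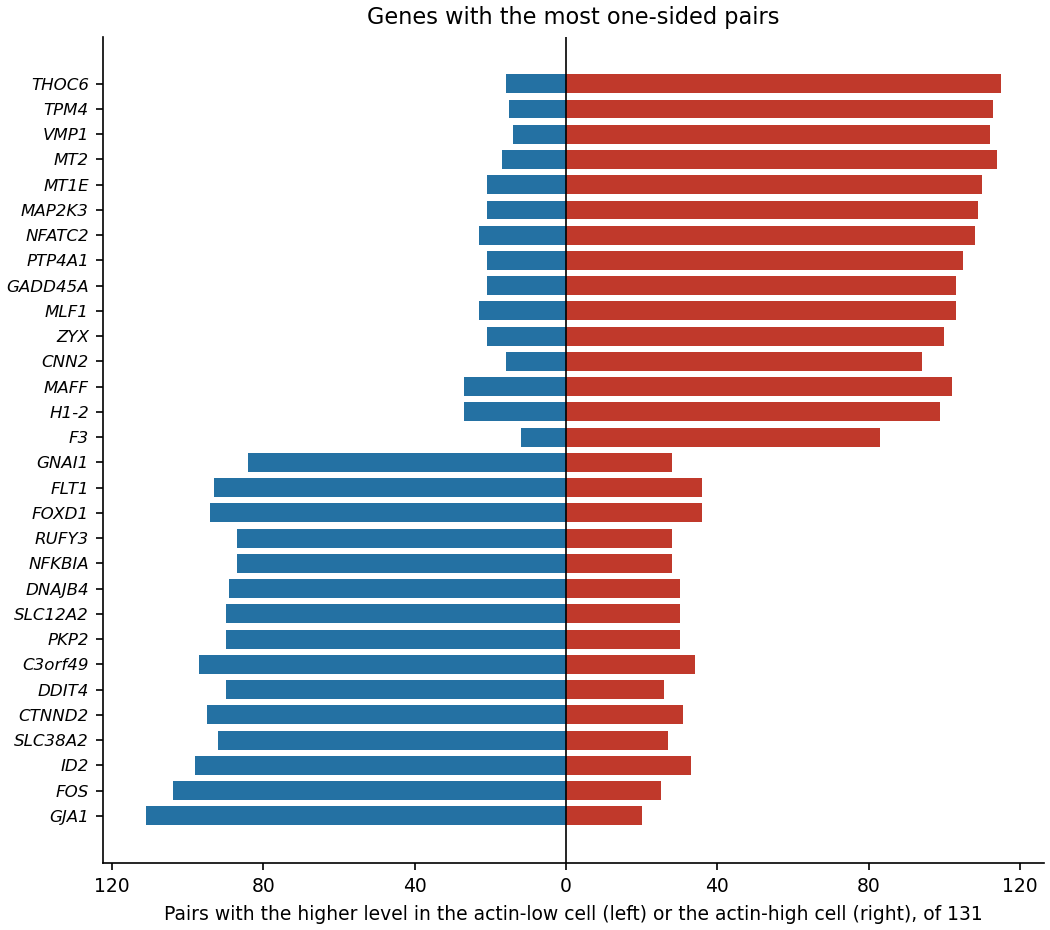
Of 131 matched pairs, the number in which the actin-high cell (red, right) or the actin-low cell (blue, left) had the higher level, for the 15 genes with the most one-sided pairs in each direction among genes 2-fold apart and on the same side in tags A951 and A952. THOC6 was higher in the actin-high cell in 115 pairs and GJA1 in the actin-low cell in 111.

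On the actin-low side, 2 carbonic anhydrase genes had levels over 7-fold higher than in actin-high cells. *CA3*, a cytoplasmic enzyme that hydrates carbon dioxide slowly, was at 17.5 rpm (15.97 to 19.1) in actin-high and 126 rpm (122 to 130) in actin-low cells. It was higher in the actin-low cell in 42 of 53 untied pairs (79.2%, 65.9 to 89.2), but in 6 of 12 (50%, 21.1 to 78.9) when the cells of tag A952 were left out. A read was found in 13.7% of actin-high cells (8.35 to 20.8), 32.1% of actin-low cells (24.2 to 40.8) and 7.20% of other tagged cells, so most actin-low cells had none either. *CA12*, a membrane-bound carbonic anhydrase of fluid-transporting tissue, was at 11.4 and 115 rpm, and favoured the actin-low cell in 44 of 58 untied pairs. It was found in 15.3% and 35.1% of the cells against 13.1% of other tagged cells. Both genes had negative log2 ratios in tags A951 and A952, between -3.06 and -2.39. Of 11 carbonic anhydrase genes in the matrix 4 were compared, and *CA3* and *CA12* were detected in enough cells only through the actin-low group, so nothing is read from the list as a whole. The mitochondrial *CA5B* had a log2 ratio of -0.10 (pairs 49 to 51) and *CA9* one of -0.40 (19 to 43). The 7 others were too rare to compare, among them *CA13* at 7.20 and 0.957 rpm.

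*GJA1*, which encodes the gap junction protein connexin 43, had the most one-sided pairs of the actin-low side. It was at 648 rpm (638 to 658) in actin-high and 2187 rpm (2169 to 2205) in actin-low cells, and the actin-low cell was higher in 111 of 131 pairs. The middle range of cells ran from 156 to 875 rpm in actin-high and from 794 to 3096 rpm in actin-low cells, so these ranges met only at their edges. The log2 ratios were -1.74 in tag A951 and -1.78 in tag A952. *ID2*, an inhibitor of helix-loop-helix transcription factors, was at 594 and 1886 rpm with 98 of 131 pairs.

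Several genes of this side were hardly read outside the NCs. *C3orf49* was at 1532 and 3276 rpm, with the actin-low cell higher in 97 of 131 pairs, against 13.3 rpm over the other tagged cells. *SLC12A2*, the sodium, potassium and chloride cotransporter that sets cell volume, was at 203 and 583 rpm with 90 of 120 untied pairs. *PKP2* (plakophilin 2), a desmosome protein gene, was at 117 and 279 rpm with 90 of 120. *FLT1*, a VEGF receptor gene, was at 345 and 761 rpm with 93 of 129, and *FOXD1*, a forkhead transcription factor gene, at 464 and 1038 rpm with 94 of 130. Other tagged cells had between 1.22 and 47.7 rpm of these 4 genes.

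*SLC38A2*, an amino acid transporter gene, was at 65.5 and 333 rpm with the actin-low cell higher in 92 of 119 untied pairs. *DDIT4*, an inhibitor of mTOR signalling, favoured it in 90 of 116 (log2 ratio -1.46, and -2.19 without the top cell of each group), and *CTNND2* (delta-catenin 2) in 95 of 126. *GPNMB*, a membrane glycoprotein of lysosome-rich cells, was at 12.9 and 119 rpm with pairs of 15 to 52, and was found in 14.5% and 42.0% of the cells against 7.76% of other tagged cells. It passed the detection limit only through the actin-low group. *CGNL1* (paracingulin), *KCNQ3* (a potassium channel) and *LAMA3* (a laminin chain) were found in under 40% of the cells of either group, each with over 8-fold higher pooled levels in actin-low cells and pairs of 18 to 50, 22 to 43 and 17 to 34.

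Immediate early and heat shock genes, which respond within minutes to stress and to tissue dissociation, were unequal in a way that pooled ratios and pairs described differently. Of 20 compared, 6 (30%, against 13.7% of all genes) were at least 2-fold higher in actin-low cells and 3 (15%, against 6.5%) in actin-high cells, with a median of -0.74. *FOS* was at 603 rpm (594 to 613) in actin-high and 4874 rpm (4847 to 4901) in actin-low cells, and the actin-low cell was higher in 104 of 129 untied pairs. The median cell had 27.05 rpm and 1645 rpm. A single actin-high cell held 52.7% of the actin-high *FOS* reads, and without the top cell of each group the log2 ratio went from -3.01 to -3.99.

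*JUN*, the partner of FOS, was at 1672 and 5727 rpm with pairs of 50 to 80. For *KLF4*, *HSPH1* and *DNAJB1* the pooled levels were over 3-fold higher in actin-low cells, while the pairs were nearly even at 54 to 69, 58 to 69 and 59 to 68. In *HSPH1* the upper quartile was 408 rpm in actin-high and 1212 rpm in actin-low cells, but the medians were 70.8 and 95.2 rpm. The pooled difference in *HSPH1* thus lay mainly above the median cell. *FOSL1* (pairs 92 to 30), *FOSL2* (72 to 37) and the nuclear receptor gene *NR4A3* (51 to 24) were on the actin-high side. The summed list was higher in the actin-low cell in 74 of 131 pairs. *NFKBIA*, the inhibitor of NF-kappaB that NF-kappaB itself induces, was at 82.2 and 374 rpm with pairs of 28 to 87. No sample without digestion was analysed here, and the part of dissociation in these genes was not tested.

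The 310 cells were next placed in 4 bins of rising actin level, of 77 or 78 cells each and without matching, which separated genes that followed the actin level from genes that differed mainly across the median. *TPM4* was at 65.9, 66.1, 458 and 701 rpm from the lowest to the highest bin, so its level was alike in the lower bins. *SRF* was higher in each bin than in the one before, at 36.5, 152, 389 and 601 rpm. *F3* was at 11.4, 65.1, 422 and 1259 rpm. *SHH* was at 27.9, 19.9, 111 and 210 rpm, and the share of cells with a read was 15.4%, 24.7%, 44.9% and 57.1%, with intervals that overlap between neighbouring bins.

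*GJA1* was lower in each bin than in the one before, at 2677, 1776, 752 and 578 rpm. *FOS* was at 4998, 4132, 701 and 220 rpm, and *C3orf49* at 3989, 2891, 1455 and 1400 rpm. *CA3* was not highest in the bin with least actin: it was at 76.0, 154, 19.7 and 5.08 rpm, and *CA12* at 47.2, 151, 10.4 and 10.2 rpm. The median reads per cell were 130500, 180932, 238784 and 203582 in these bins, so shares of cells with a read also carry a difference in depth.

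**Figure D4:**
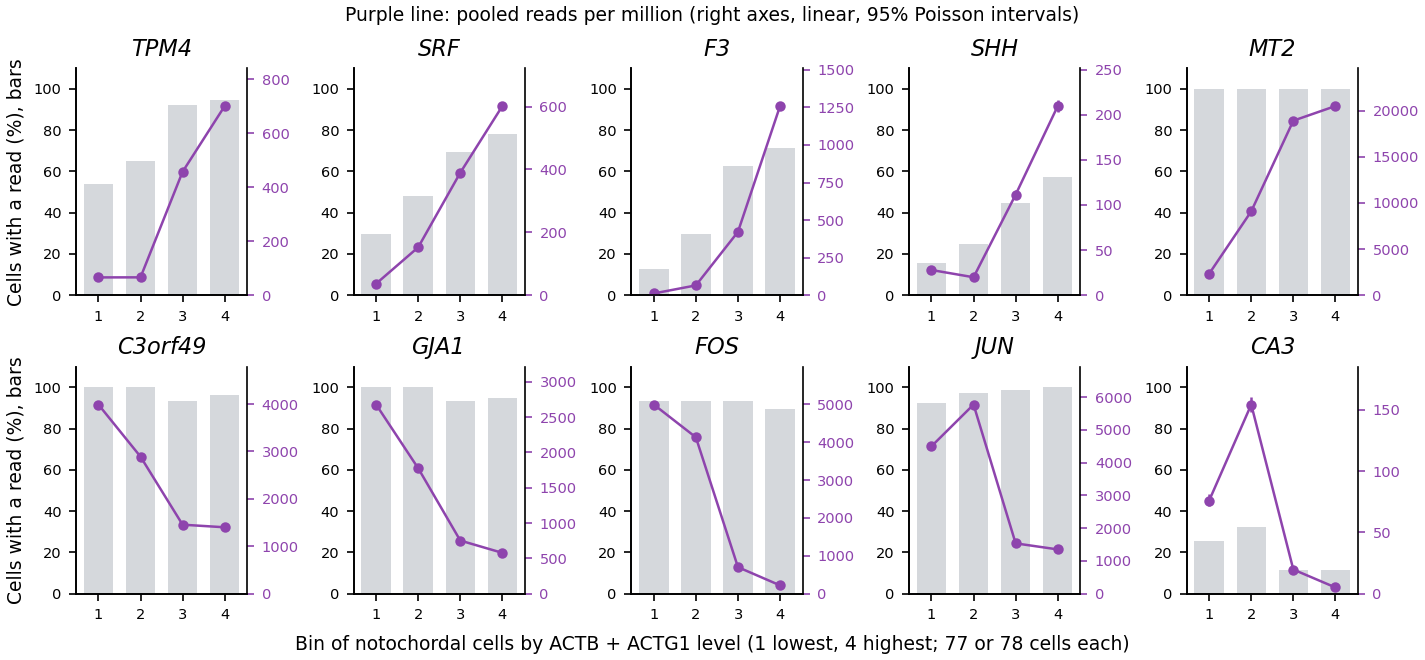
Share of NCs with a read (grey bars, left axes, percent) and pooled rpm with 95% Poisson intervals (purple lines, right axes, linear and different for each gene) in 4 bins of the ACTB and ACTG1 level. F3 goes from 11.4 to 1259 rpm and GJA1 from 2677 to 578 rpm, whereas CA3 is highest in the second bin at 154 rpm.

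Markers of the chondrocyte-like cells that fill the rest of the library were measured in the same pairs. Of 22 compared, 8 (36.4%, against 13.7% of all genes) were at least 2-fold higher in actin-low cells and 1 (*SOX9*; 4.55%, against 6.5%) in actin-high cells, with a median log2 ratio of -0.52. None of the 8 reached 2 to 1 in pairs, and over all genes only 213 of the 992 on that side did. The collagen gene *COL9A1* was at 88.2 and 375 rpm with pairs of 59 to 72, and 1 cell held 25.5% of the actin-low reads. The mineralization inhibitor gene *MGP* was at 140 and 839 rpm with pairs of 60 to 71 and 31.8% in 1 cell. The median cells had 48.0 and 57.0 rpm of *MGP*, against a pooled 7021 rpm in the other tagged cells. *COL2A1* was at 761 and 1850 rpm, yet its pairs leaned to the actin-high cell at 75 to 56.

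The summed markers were higher in the actin-low cell in 51 of 131 pairs (38.9%, 30.5 to 47.8) and in the actin-high cell in the others. *ACAN*, the aggrecan gene, gave this list the most reads in NCs, at 16781 and 11159 rpm with pairs of 87 to 44. The median sum was 31991 rpm in actin-high, 24484 rpm in actin-low and 84884 rpm in other tagged cells. *ISLR*, *CTHRC1*, *RGMA*, *MATN3*, *OGN* and *BMPER*, which had some of the largest ratios toward actin-low cells (log2 from -4.53 to -3.08), were likewise at 56.2 rpm or more in other tagged cells and at most 76.5 rpm in actin-low NCs. Their pairs ranged from 21 to 36 for *ISLR* to 49 to 53 for *MATN3*. Without the top cell of each group the log2 ratio was -3.70 for *ISLR* and -3.31 for *RGMA*, and the part of chondrocyte-like RNA in these ratios was not tested. When pairs were formed only among cells on the same side of the median of these markers, a setting chosen after the data were seen, the number of genes on either side stayed within 1.5 times of the first count.

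Fibroblast markers had 1 of 7 genes (14.3%, against 6.5% of all genes) on the actin-high side and 3 (42.9%, against 13.7%) on the actin-low side. The first was *COL1A2*, at 1080 and 501 rpm with pairs of 87 to 44, and the 3 others included *COL3A1*, at 44.4 and 217 rpm with pairs of 55 to 76. None of the genes past 2-fold in this list reached 2 to 1 in pairs. The median sum of this list was 921 rpm in actin-high, 505 rpm in actin-low and 2393 rpm in other tagged cells. Blood and vessel markers were near 0, with 2 of 11 detected often enough to compare. The macrophage gene *CD68*, which many cells make at a low level, was at 15.7 and 2.76 rpm with pairs of 46 to 21, and the pericyte gene *RGS5* at 13.7 and 2.91 rpm with pairs of 25 to 23 and log2 ratios of -0.36 in tag A951 and 2.40 in tag A952. The macrophage gene *AIF1* had no read in any matched cell.

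The same split was made in the other tagged cells, at their own median of 4722 rpm, to see which of these genes accompany actin outside the NCs. In 2614 pairs of those cells, 58 of 6888 genes (0.842%) were at least 2-fold higher in actin-high cells and 43 (0.624%) in actin-low cells. The groups lie closer together there and the pairs are many more, so these shares cannot be set against those of the NCs. Of 402 genes on the actin-high side of the NCs that were compared in both, 276 (68.7%) were above 0 in the other cells too, where 41.0% of all genes were. The 20 genes past 2-fold in both were 4.98% of the NC list and 39.2% of the list of the other cells. Of 833 genes on the actin-low side of the NCs, 581 (69.7%) were below 0 in the other cells, where 59.0% of all genes were, and the 13 past 2-fold in both were 1.56% of the NC list and 37.1% of the list of the other cells.

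Of the 71 genes of filament assembly, crosslinking and contraction compared in the other cells, 5 were at least 2-fold higher with high actin (background 0.842%) and 1 with low actin (background 0.624%), and the median was 0.16. *TAGLN* had a log2 ratio of 2.11 in the other cells, *TPM4* 1.28, *CNN2* 1.18, *ZYX* 1.14 and *SRF* 0.80. Of the genes named on the actin-low side, *FOS* (-2.40), *JUN* (-1.20) and *GJA1* (-0.83) were low with high actin there as well. Other named genes had log2 ratios nearer 0 in the other cells, among them *VMP1* (0.07), *MT2* (0.09), *GBP3* (-0.21) and *SLC12A2* (0.17). *C3orf49* went the other way, with 1.42 in the other cells at 13.3 rpm. The actin-high group of the other cells also held more notochordal RNA, with log2 ratios of 1.83 for *KRT19* and 1.80 for *TBXT*, and its part in these ratios was not tested. Whether these ratios differ between the 2 sets of cells was not tested.

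**Figure D5:**
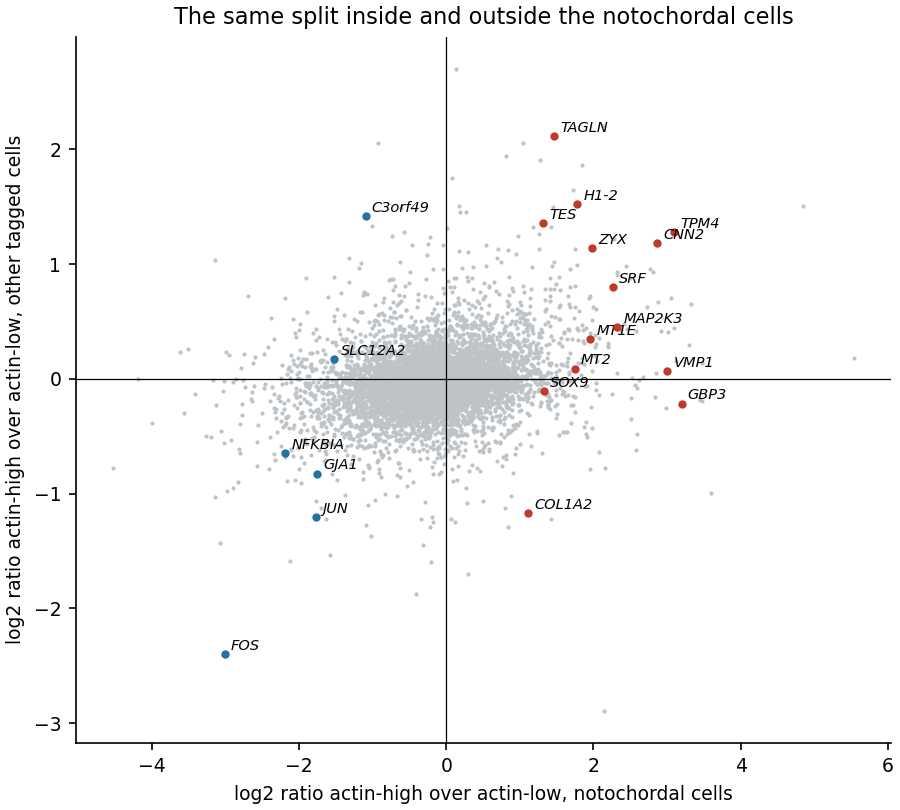
Log2 ratio, actin-high over actin-low, in NCs (horizontal axis, 131 pairs) and in the other tagged cells (vertical axis, 2614 pairs) for 6521 genes compared in both, with genes of the text named in red or blue. FOS is low with high actin in both, TAGLN high in both, and VMP1 and MT2 lie near 0 on the vertical axis.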

How the data were processed

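Per the file headers and the study's methods, the authors mapped TAS-seq reads with HISAT2 2.2.1, assigned them to whole genes with featureCounts 2.0.2, using strand and keeping reads that map to several places, and added them up for each cell with velocyto, with no molecular identifiers. The genome build was not given in the sources used here. The table the authors deposited holds raw counts, in whole reads for each gene of each cell. Cells with 2 tags (42) or no tag (7) were left out and none of them had both markers. A second matrix of 1358 columns that the labels do not list, and the tag library, were not used.

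Levels are pooled reads per 1000000 reads. Cells were paired by optimal assignment on log2 total reads in Python 3.11.15 (numpy 2.4.6, scipy 1.17.1, pandas 2.3.3). Ratios used a floor of 3 reads a group. Named genes were the 15 with the largest and the 15 with the smallest ratio (at least 10 rpm, the same side in each tag with 10 paired cells a group), members of 25 lists, and genes the study names. A second choice by pairs was added after values were seen. The members and lists were chosen with earlier results of these data known. Of 445 listed genes, 383 were in the matrix. The calculation was tested on simulated data. No sequence or coordinate is given.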

Additional observations from a re-analysis of the deposited data

How the results depend on the processing

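The comparison was repeated under 17 listed alternatives and 2 added after the values were seen, which changed the matching, the split, the marker limit, the normalization, the detection limit or the tags. Of 6 values run again (the gene counts of both sides, the pair shares of *CA3*, the actin regulators and the chondrocyte-like markers, and the share of actin-high cells with a *SHH* read), most stayed within 1.5 times or within their interval. The *SHH* share of actin-low cells was not among them, so the difference in *SHH* between the groups was not followed across the alternatives. The other genes and lists were not run again. With at least 5% of cells required to have a read, 1193 (10.7%) and 2045 (18.3%) of 11178 genes were 2-fold higher in actin-high and actin-low cells, and with at least 50%, 138 (4.89%) and 209 (7.4%) of 2824, so the shares moved as well as the number compared. The 103 cells with most actin against the 104 with least gave 713 genes on the actin-high side. With 1 read of both markers as the limit, the chondrocyte-like markers were higher in the actin-low cell in 49.7% of pairs. In that setting 669 of 7829 genes (8.55%, against 13.7% in the first comparison) were 2-fold higher in actin-low cells and 442 (5.65%, against 6.5%) in actin-high cells. The 74 NCs without tag A952 gave 18 pairs at their own median. There, 1330 and 1967 genes were past 2-fold, *CA3* was higher in the actin-low cell in 50% of untied pairs, the actin regulators were higher in the actin-high cell in 66.7%, and *SHH* was read in 33.3% of actin-high cells. The cause of these differences was not tested. No paired analysis was possible because the labels give 1 library and no replicate numbers to pair samples by; the pairs used are of cells matched on reads.

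Depth limits single cells more than pooled levels: a gene without a read in a cell can be unexpressed or missed. Reads include PCR copies, and tag and actin level are partly confounded. The labels do not separate the pooled animals, but the NP was taken only from the male that gave both tissues. The NCs of the NP therefore say nothing of differences between animals.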

Other observations

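Of 13 glycolysis genes compared, 2 (15.4%, near the 13.7% of all genes) were at least 2-fold higher in actin-low cells, none (against 6.5%) in actin-high cells, and the median log2 ratio was -0.53 against -0.17 for all genes. The summed level was higher in the actin-low cell in 87 of 131 pairs (66.4%, 95% exact binomial interval 57.6 to 74.4). Only 14 of 20 listed genes were in the matrix, without *GAPDH*, *PKM*, *ALDOA* and *TPI1* among others, and *ENO1* gave the sum the most reads. *ENO2*, a neuronal enolase, was at 25.9 and 71.8 rpm with pairs of 21 to 49, and *PFKL*, a phosphofructokinase gene, at 123 and 276 rpm with pairs of 36 to 73. The hypoxia list had 1 of 12 genes on the actin-low side (*DDIT4*; 8.33%, below the 13.7% of all genes), none on the other (against 6.5%) and a median of -0.40, with the sum higher in the actin-low cell in 82 of 131 pairs (62.6%, 53.7 to 70.9). The osmolyte, water and ion transport list had 1 of 10 genes on the actin-high side (*AQP3*) and 2 on the actin-low side (*SLC12A2* and the betaine transporter *SLC6A12*), with a median of -0.52, and its shares of 10% and 20% were close to the 6.5% and 13.7% of all genes for so few genes. Lysosome genes had 1 of 18 (5.56%, below the 13.7% of all genes) on the actin-low side, none (against 6.5%) on the other and a median of -0.29. No gene was past 2-fold among 9 of ER stress (median -0.10), 51 ribosomal protein genes (0.00) and 11 mitochondrial genes (0.15), against 6.5% and 13.7% of all genes, and the ER stress and mitochondrial lists are short for such shares.

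The epithelial junction list had 1 of 10 genes past 2-fold on either side (10%, against 6.5% and 13.7% of all genes) and a median log2 ratio of -0.77, and its sum was higher in the actin-low cell in 87 of 131 pairs. *DSP*, which encodes desmoplakin, was at 439 and 733 rpm with pairs of 42 to 85, while *CTNND1*, the p120 catenin gene, leaned to actin-high cells with pairs of 62 to 22 but had log2 ratios of -0.49 in tag A951 and 1.04 in tag A952. Laminin and basement membrane genes had 1 of 11 on either side (9.09%, against 6.5% and 13.7% of all genes), with a median of -0.23. Of 8 immune receptor and chemokine genes, 1 (12.5%, against 6.5% of all genes) was on the actin-high side and 4 (50%, against 13.7%) on the actin-low side, with a median of -0.99 and the sum higher in the actin-low cell in 96 of 131 pairs (73.3%, 64.8 to 80.6), and *NFKBIA* gave this list the most reads. Only 1 of the 4 reached 2 to 1 in pairs, as did 213 of the 992 genes on that side, and the gene on the actin-high side did not. Of 11 tubulin and intermediate filament genes, 3 (27.3%, against 6.5% of all genes) were on the actin-high side and 1 (9.09%, against 13.7%) on the actin-low side, with a median of 0.38. Among them *TUBB6*, a beta-tubulin gene, was at 573 and 179 rpm with pairs of 97 to 26, *LMNA* (lamin A and C) at 1714 and 791 rpm with pairs of 96 to 35, and *TUBB* at 91.8 and 206 rpm with pairs of 40 to 64. Vimentin (*VIM*) was at 3778 and 3861 rpm. Of 13 proliferation genes in the matrix only 2 were compared, too few to set against all genes. One of them, the chromatin protein gene *HMGB2*, was 2-fold higher in actin-high cells, with pairs of 92 to 36.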
